A study of Mus musculus with 6 samples.

Results

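Epithelial fluid transport genes were examined in mouse lung epithelial cells sorted for activity of the Piwil4 gene. The set held 9 genes: the chloride channel gene Cftr, the sodium channel subunit genes Scnn1a, Scnn1b and Scnn1g, the cotransporter gene Slc12a2, the sodium pump subunit gene Atp1b1, and the water channel genes Aqp4, Aqp5 and Aqp3. All 9 were found by symbol among the 48577 genes of the count files. Cftr was picked because it was lower in the tdTomato-positive fraction of these same libraries, so its difference is described here and not tested. The other 8 were taken as chloride, sodium and water transport genes to set beside it.

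The study compared 3 tdTomato-positive with 3 tdTomato-negative libraries of C57BL/6 lung, 1 of each from each of 3 mice. All 6 came from Miwi2-tdTomato animals, in which the red fluorescent protein tdTomato reports Piwil4, the gene of the Piwi protein MIWI2, so cells of both fractions carry the reporter. Cells were gated as negative for the leukocyte marker CD45 and positive for the epithelial marker EpCAM, then split by tdTomato. The age and sex of the animals and the copy number of the reporter are not given in the sources used here. The labels call both fractions multiciliated cells, and the gate named in them includes no ciliary marker.

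Fluid on the airway and alveolar surface is set by opposed ion flows that water follows. Sodium enters the cell through the epithelial sodium channel ENaC, built from the subunits encoded by Scnn1a, Scnn1b and Scnn1g, and leaves through the Na,K-ATPase, whose beta subunit is encoded by Atp1b1. Chloride is loaded from the blood side by the cotransporter NKCC1, encoded by Slc12a2, and leaves at the surface through CFTR, the cAMP-gated anion channel lost in cystic fibrosis. Aquaporins let water pass through the cell membranes.

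The promoter sequences of Cftr and Scnn1g are shown because these were the members with the largest fitted difference in each direction. RefSeq promoter windows (GRCm38.p6) were kept here for 6 of the 9 members, and not for Slc12a2, Aqp4 and Scnn1a. Not every RefSeq window was kept, so a member without one here may still have one in RefSeq. The lines give the 250 bases before the annotated start on the + strand, chr6:18170437-18170686 for Cftr and chr7:121734229-121734478 for Scnn1g, with matches to the GC box GGGCGG in capitals.
Cftr: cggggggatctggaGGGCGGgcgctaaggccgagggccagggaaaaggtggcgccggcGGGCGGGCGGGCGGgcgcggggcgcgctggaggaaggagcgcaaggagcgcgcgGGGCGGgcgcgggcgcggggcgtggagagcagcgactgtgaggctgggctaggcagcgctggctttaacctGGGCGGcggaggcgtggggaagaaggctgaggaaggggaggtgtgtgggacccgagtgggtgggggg
Scnn1g: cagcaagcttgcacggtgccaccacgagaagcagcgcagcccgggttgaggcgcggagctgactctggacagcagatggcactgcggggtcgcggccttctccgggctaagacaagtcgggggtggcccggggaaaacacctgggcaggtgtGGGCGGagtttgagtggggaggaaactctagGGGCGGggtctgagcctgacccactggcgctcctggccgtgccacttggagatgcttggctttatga
The Cftr window was 76.4% G or C and held 6 GC box matches, 3 of them overlapping. The Scnn1g window was 65.2% G or C and held 2. Among the 32851 promoter windows of this length that were kept, called all windows below, 32.7% held the GC box on either strand. Neither window held, on either strand, the CCAAT box or the TATA box (TATAAA), which 33.8% and 12.4% of all windows held. The cAMP response element (TGACGTCA), its half-site (TGACG), which lies within it, and the forkhead motif (TGTTTAC) were also not found in these windows. They were in 1.55%, 17.8% and 3.17% of all windows. These matches describe letters in the windows only.

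Each library held between 5330584 and 6326395 reads counted in genes. Levels are given as CPM, read counts scaled to library size with TMM factors (trimmed mean of M-values). The limit that a count of 0 allows, 3 reads, corresponded to 0.475 to 0.585 CPM, counting error only. Piwil4 followed the sort, at 101, 95.7 and 111 CPM in the tdTomato-positive and 44.0, 29.96 and 45.6 CPM in the tdTomato-negative libraries of mice 1, 2 and 3. The tdTomato row had 37, 16 and 18 reads in the positive libraries and 0 in each negative library. Summed levels of 12 multiciliated cell markers were 7174 to 8050 CPM in the positive and 7032 to 7524 CPM in the negative libraries, and each of the 12 passed the filter. Markers of other epithelial cells were present as well: 9 club cell markers summed to 8724 to 22339 CPM in the positive and 4907 to 8412 CPM in the negative libraries, and 12 alveolar type 2 markers to 594 to 1162 CPM and 6744 to 8118 CPM. Mitochondrial ribosomal RNA held 18.6% ± 1.10 of counts in genes in the positive and 30.8% ± 7.48 in the negative libraries (SD, n = 3 each).

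Differences between the fractions were fitted over all 13175 genes kept by a filter on low counts, with the quasi-likelihood test of edgeR, and p-values were adjusted by Benjamini-Hochberg over all of them. Of these genes 0.622% passed an adjusted p of 0.05 without a term for the mouse, 0.577% as lower and 0.0455% as higher in the positive fraction (76 and 6 genes, against 54 and 22 with library size in place of TMM factors). Because each mouse gave both fractions, a second fit took the mouse as a replicate block, and there 3.15% passed, 1.79% as lower and 1.36% as higher. Of the 9 members, 8 passed the filter and Aqp3 did not. The 1 member past the threshold in the first fit was Cftr, and with the block they were Cftr and Slc12a2. Nothing is read from these counts, since Cftr was picked on this contrast. The groups did not overlap for 3 of the 8 kept members, Cftr, Slc12a2 and Aqp5, all lower in the positive fraction, against 17.3% of all genes kept that did not overlap in either direction, 9.02% that were lower without overlap and 8.29% that were higher. Within mice, 5 of the 8 were lower in the positive library of all 3 mice and 2 were higher in all 3, against 18.8% and 19.8% of all genes kept. The median log2 fold change of the 8 was -0.35, against 0.03 over all genes kept. The overlap and direction counts and this median include Cftr too, so nothing is read from them either.

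Cftr RNA was low in tdTomato-positive cells and clearly present in tdTomato-negative cells of every mouse. The gene lies on chromosome 6, 18170687 to 18322768 (GRCm38), and 1.66% of its exon bases overlap the antisense gene Gm15592, whose reads cannot be told apart without strand. Cftr had 34, 21 and 10 reads in the positive libraries of mice 1, 2 and 3, against 176, 122 and 177 reads in the negative ones. That is 5.74, 3.32 and 1.59 CPM in the positive and 34.1, 23.4 and 34.5 CPM in the negative libraries. The highest positive library lay well below the lowest negative one. Means were 3.55 ± 2.09 CPM in positive and 30.7 ± 6.29 CPM in negative libraries (SD, n = 3 each), and the fitted log2 fold change was -3.11 ± 0.426 (SE), or 8.63-fold lower. Within mice 1, 2 and 3 the log2 ratio of positive to negative was -2.57, -2.82 and -4.44, so mouse 3 had the largest difference and also the lowest positive level. In bulk RNA, fewer cells that make a transcript and less of it per cell cannot be told apart. The 12 alveolar type 2 markers together were 8.23-fold lower in the positive libraries, and their part in the Cftr values was not tested.

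Slc12a2, which brings chloride into the cell for secretion, was lower in the positive libraries by a smaller factor than Cftr. The gene lies on chromosome 18, 57878678 to 57946821. It was at 82.6, 91.1 and 46.7 CPM in the positive libraries and 132, 143 and 136 CPM in the negative libraries of mice 1, 2 and 3. The negative libraries were close together, while mouse 3 had the lowest positive value. On the log2 scale the fitted difference was -0.90 ± 0.234 (SE), with an edgeR adjusted p of 0.163. With the mouse as a replicate block it was -0.95 ± 0.190 (SE; edgeR adjusted p = 0.00861), so Slc12a2 fell in the blocked fit and did not pass the other. DESeq2 without the block also passed it (adjusted p = 0.0434). The blocked fit without mouse 3 gave -0.67 and did not pass (edgeR adjusted p = 0.368), while the blocked fits without mouse 1 or mouse 2 passed. Over the 21 alternatives the adjusted p ran from 4.8e-05 to 0.598, and the log2 fold change stayed below 0 in all 21.

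**Figure D1:**
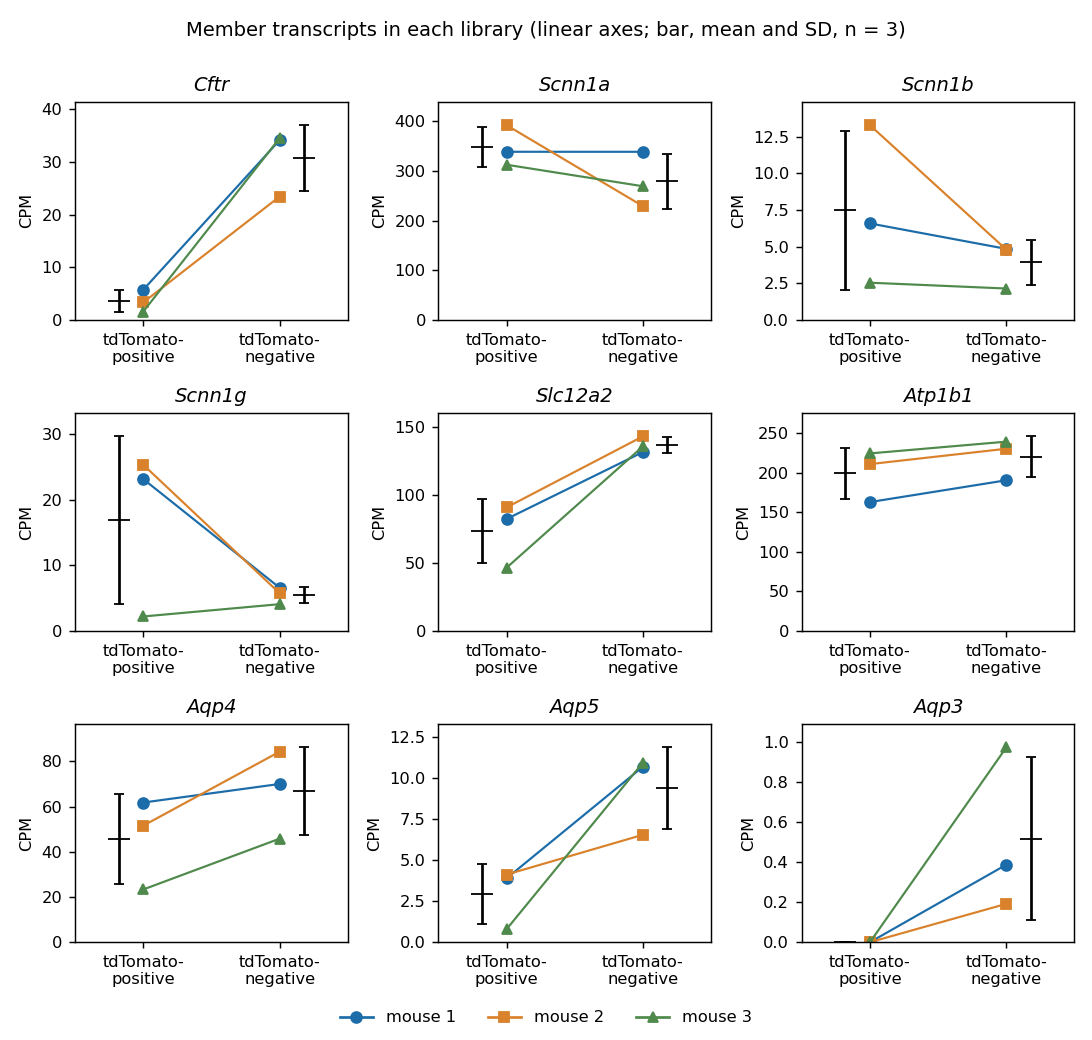
CPM of each member in every library on linear axes starting at 0, tdTomato-positive left and tdTomato-negative right, with lines joining the fractions of 1 mouse and bars for the mean and SD (n = 3). Cftr, Slc12a2 and Aqp5 are lower in each positive library than in any negative one, while Scnn1a, Scnn1b, Scnn1g, Atp1b1 and Aqp4 overlap.

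Of the sodium entry genes, Scnn1a was abundant in both fractions and Scnn1b and Scnn1g were scarce. Scnn1a encodes the alpha subunit, which the channel needs to conduct, and lies on chromosome 6, 125320659 to 125344943. It was at 339, 393 and 313 CPM in the positive libraries and 339, 229 and 269 CPM in the negative ones, by mouse in the same order, and the groups overlapped. The fitted log2 change was 0.32 ± 0.182 (SE; edgeR adjusted p = 0.567, and 0.314 with the block). In mouse 1 the log2 ratio of positive to negative was 0.000178, and in mice 2 and 3 it was 0.78 and 0.22.

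Scnn1b and Scnn1g encode the beta and gamma subunits and lie on chromosome 7, at 121865038 to 121918514 and 121734479 to 121768475. Scnn1b was at 6.59, 13.3 and 2.54 CPM in the positive libraries, against 4.85, 4.80 and 2.14 CPM in the negative ones (log2 fold change 0.92 ± 0.602, SE; edgeR adjusted p = 0.615). Without the positive library of mouse 2 the log2 change of Scnn1b was 0.21, and without mouse 2 it was 0.38. Scnn1g was at 23.1, 25.3 and 2.22 CPM in the positive libraries, against 6.60, 5.76 and 4.09 CPM in the negative ones. The positive libraries of mice 1 and 2 thus stood above all negative libraries for Scnn1g, and that of mouse 3 below all of them. The log2 ratios of the mice were 1.81, 2.14 and -0.88, and the fitted value was 1.62 ± 0.717 (SE; edgeR adjusted p = 0.466, and 0.216 with the block). Without the positive library of mouse 3 it was 2.14 ± 0.342 (SE; edgeR adjusted p = 0.0432). It was smaller with the block (1.23), with limma-voom (1.00) and with the block without mouse 1 (0.88) or mouse 2 (0.66; adjusted p = 0.669). Without the filter it also passed (adjusted p = 0.0113), and over the 21 alternatives the adjusted p ran up to 0.892.

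The summed level of the club cell markers was 22339, 21825 and 8724 CPM in the positive and 8412, 8211 and 4907 CPM in the negative libraries of mice 1, 2 and 3, so the positive library of mouse 3 was the lowest of the positive ones there too. Goblet cell markers summed to 308, 838 and 17.8 CPM in the positive and 71.0, 115 and 14.4 CPM in the negative libraries, with log2 ratios of 2.12, 2.86 and 0.30, and again the positive library of mouse 3 was the lowest positive one. The part of both lists in the Scnn1b and Scnn1g values was not tested.

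Relative to transcript length, Scnn1a made up most of the ENaC subunit RNA. Levels per kilobase were obtained by dividing CPM by the exon length of the gene. Scnn1a held 88.9%, 87.5% and 97.8% of the summed subunit level in the positive libraries and 95.3%, 93.7% and 96.8% in the negative ones. Scnn1g held 5.71% ± 4.13 in positive and 2.61% ± 0.612 in negative libraries, and Scnn1b 2.87% ± 1.71 and 2.14% ± 0.935 (SD, n = 3 each). These shares overlapped between the fractions for all 3 subunits.

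Atp1b1, whose protein brings the sodium pump to the membrane, differed least of the 8 kept members. It lies on chromosome 1, 164437109 to 164458355. It was at 163, 211 and 224 CPM in the positive and 190, 230 and 239 CPM in the negative libraries. Each mouse had slightly less in its positive library, with log2 ratios of -0.23, -0.13 and -0.09, but the groups overlapped. Its fitted log2 change was -0.14 ± 0.177 (SE; edgeR adjusted p = 0.812), and it turned to 0.13 with library size in place of TMM factors, a scaling that moved the median of all genes to 0.29. The gene shares 18.7% of its exon bases with Nme7 on the opposite strand, and reads there cannot be told apart without strand.

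**Figure D2:**
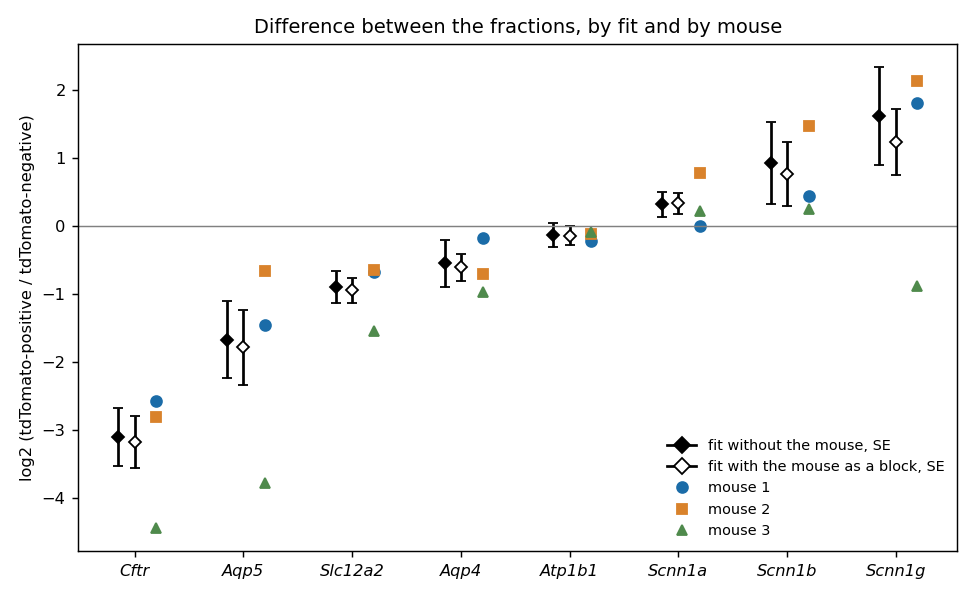
Log2 ratio of tdTomato-positive to tdTomato-negative for the 8 kept members, with fitted values and their SE without (filled) and with (open) the mouse as a block, and the 3 mice as coloured points. Mouse 3 lies lowest for Cftr, Aqp5, Slc12a2, Aqp4, Scnn1b and Scnn1g, and Cftr is the gene picked for this difference.

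Of the water channels, Aqp4 was the most abundant. Its protein lies in the basolateral membrane of airway epithelial cells, and the gene lies on chromosome 18, 15389496 to 15410982. Aqp4 was at 61.8, 51.6 and 23.3 CPM in the positive and 70.0, 84.3 and 45.8 CPM in the negative libraries. Each mouse had less in its positive library, while the groups overlapped. The fitted log2 change was -0.55 ± 0.343 (SE; edgeR adjusted p = 0.603, and 0.123 with the block). In the blocked fit without mouse 1 it was -0.85 (edgeR adjusted p = 0.0179), the 1 setting of the 21 that passed it.

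Aqp5, an apical water channel of cells that include alveolar type 1 and gland cells, was scarce. It lies on chromosome 15, 99590782 to 99594829. It had 23, 26 and 5 reads in the positive libraries, against 55, 34 and 56 reads in the negative ones. In CPM this was 3.88, 4.11 and 0.794 in the positive and 10.7, 6.53 and 10.9 in the negative libraries. The groups did not overlap, and the log2 ratio was -1.46, -0.67 and -3.78 in mice 1, 2 and 3. The log2 fold change of -1.67 ± 0.566 did not pass (SE; edgeR adjusted p = 0.311, and 0.0935 with the block). The blocked fit passed it without mouse 1 (adjusted p = 0.0212) and without mouse 2 (adjusted p = 0.045), with log2 changes of -1.98 and -2.42. Without mouse 3 the blocked value was -1.06 and did not pass (adjusted p = 0.664), and the highest adjusted p over all alternatives was 0.807, in the fit without the block and without mouse 3. Summed levels of 8 alveolar type 1 markers, which do not include Aqp5, were 314 to 403 CPM in the positive and 286 to 357 CPM in the negative libraries. Of these markers Ager had 2.196, 1.58 and 1.43 CPM in the positive and 11.1, 6.72 and 8.38 CPM in the negative libraries. Pdpn had no read in any library. The 7 that passed the filter had a median log2 fold change of 0.02, with 4 above 0 and 3 below. Over all 13175 genes kept, 6943 were above 0. Summed alveolar type 2 markers had log2 ratios of -2.97, -2.54 and -3.77 in mice 1, 2 and 3. The part of either list in the Aqp5 values was not tested.

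Aqp3, a water and glycerol channel found in airway basal cells, was close to absent. Its gene lies on chromosome 4, 41092722 to 41098183. It had no read in any positive library, which allows up to 0.507, 0.475 and 0.476 CPM, and 2, 1 and 5 reads in the negative libraries. A difference could not be measured at this depth. The basal cell marker Trp63, a transcription factor, had 0 reads over the positive and 128 over the negative libraries, and the basal keratin gene Krt5 had 5 and 31.

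Ordered by mean level per kilobase in the positive libraries, the members ran Scnn1a, Atp1b1, Aqp4, Slc12a2, Scnn1g, Scnn1b, Aqp5, Cftr and Aqp3. Scnn1a and Atp1b1 were at 84.2 ± 9.83 and 64.7 ± 10.5 CPM per kilobase, and no other member exceeded 7.31 ± 3.197 (SD, n = 3). Among neighbours in this order, the ranges were apart for Scnn1a and Atp1b1, for Atp1b1 and Aqp4, and for Cftr and Aqp3, and overlapped for the other 5 pairs. In the negative libraries the order was Atp1b1, Scnn1a, Slc12a2, Aqp4, Cftr, Aqp5, Scnn1g, Scnn1b and Aqp3. Cftr was thus at place 8 in the positive and 5 in the negative libraries, at 0.457 ± 0.269 and 3.95 ± 0.810 CPM per kilobase (SD, n = 3 each). In every positive library Scnn1b and Scnn1g were above Cftr per kilobase, and in every negative library Cftr was above both.

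To place the members among genes of the same processes, 90 other transport genes were listed by function, of which 57 passed the filter. The lists were chosen with earlier results of these data known, so the shares below are a description. Without the block 1 of the 57, or 1.75%, passed the threshold, against 0.622% of all genes kept, and with the block 4, or 7.02%, against 3.15%. The median log2 fold change of the 57 was 0.09, against 0.03 over all genes kept. The groups did not overlap for 13 of them, 8 higher and 5 lower in the positive fraction, beside 17.3% of all genes kept, 8.29% higher and 9.02% lower.

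Of 14 other chloride and bicarbonate transporter genes, 8 passed the filter, 1 fell and none rose, with a median of 0.08. Slc26a9, a chloride channel and transporter of epithelia that interacts with CFTR, was at 31.4, 32.3 and 20.3 CPM in the positive and 107, 71.8 and 101 CPM in the negative libraries. All positive libraries lay below all negative ones, and mouse 3 again had the lowest positive value. The fitted log2 change was -1.73 ± 0.244, or 3.32-fold lower (SE; edgeR adjusted p = 0.00693, and 0.000138 with the block), lower in 3 of 3 mice. Leaving out the negative library of mouse 1 ended the call (adjusted p = 0.0651), as did leaving out mouse 1 (0.0991) or mouse 3 (0.151), and mouse 3 in the blocked fit (0.0747). Slc26a4, the anion exchanger pendrin, named after its values were seen, had 0, 3 and 0 reads in the positive and 6, 65 and 47 reads in the negative libraries and did not pass the filter. Ano1, the calcium-activated chloride channel, also named after its values were seen, had a fitted log2 change of 0.99 ± 0.414 (SE; edgeR adjusted p = 0.428).

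Of 11 potassium channel genes, which set the voltage that drives chloride exit, 6 passed the filter, with a median of -0.20. Kcnj15, an inward rectifier, was at 35.3, 66.9 and 18.9 CPM in the positive and 179, 194 and 180 CPM in the negative libraries. The groups were far apart. The fitted log2 change was -2.19 ± 0.386 (SE; edgeR adjusted p = 0.0506), just outside the threshold, and it fell with the block, by 2.35 on the log2 scale (edgeR adjusted p = 0.000181). It passed 12 of 21 alternatives, with adjusted p from 1.35e-21 to 0.381. Of its exon bases 5.27% overlap the antisense gene Gm49643.

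Of 11 genes for CFTR scaffolds and cAMP signalling, 10 passed the filter, with a median log2 fold change of 0.41. Of these, 8 were above 0, beside 6943 of all 13175 genes kept. None of the 10 passed the threshold without the block. Slc9a3r1 encodes NHERF1, the PDZ scaffold that binds the tail of CFTR. It was at 84.6, 89.4 and 87.8 CPM in the positive and 63.4, 42.8 and 40.2 CPM in the negative libraries, so the fractions did not overlap and ran opposite to Cftr. In the fit the log2 change was 0.84 ± 0.211 (SE; edgeR adjusted p = 0.145), and with the block it rose, by 0.87 on the log2 scale (edgeR adjusted p = 0.0181). Over the alternatives its adjusted p ran from 0.00042 to 0.679.

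Of 11 genes for other cation-chloride cotransporters and their kinases, 8 passed the filter, with a median of -0.02, and none passed the threshold without the block. Slc12a7 encodes KCC4, which carries potassium and chloride out of the cell, opposite to the NKCC1 protein of Slc12a2. It was at 104, 202 and 146 CPM in the positive and 80.7, 109 and 95.2 CPM in the negative libraries. Each mouse had more in its positive library, but the groups overlapped. The fitted log2 change was 0.67 ± 0.237 (SE; edgeR adjusted p = 0.335), and it rose with the block (log2 fold change 0.63, edgeR adjusted p = 0.0453). Its adjusted p over the alternatives ran from 0.0154 to 0.756.

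No gene passed either fit among the sodium pump partners, the ENaC regulators, the proton and acid-base genes or the other aquaporins. Of 13 sodium pump partners 6 passed the filter (median 0.19). Atp1b3, another beta subunit of the pump, had a fitted log2 change of -0.24 ± 0.203 (SE; edgeR adjusted p = 0.707).

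All 13 listed ENaC proteases, inhibitors and regulators passed the filter, with a median of 0.06. The 2 most abundant were Nedd4, a ubiquitin ligase, at 637 ± 99.0 CPM in positive and 609 ± 16.9 CPM in negative libraries, and Tmprss2, a membrane serine protease, at 220 ± 33.1 and 173 ± 15.7 CPM (SD, n = 3 each). Their edgeR adjusted p was 0.913 and 0.506.

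Of 8 proton and acid-base genes 4 passed the filter (median 0.04). Car2, a carbonic anhydrase, was at 26.4 ± 11.5 CPM in positive and 32.2 ± 5.14 CPM in negative libraries (SD, n = 3 each), with an edgeR adjusted p of 0.781. Of 9 other aquaporins 2 passed the filter. Aqp1, the water channel of lung endothelium, had 7, 10 and 2 reads in the positive and 51, 23 and 4 reads in the negative libraries (edgeR adjusted p = 0.388). Aqp11, an intracellular aquaporin, had 11, 15 and 29 reads in the positive and 4, 16 and 17 in the negative libraries (edgeR adjusted p = 0.902).

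**Figure D3:**
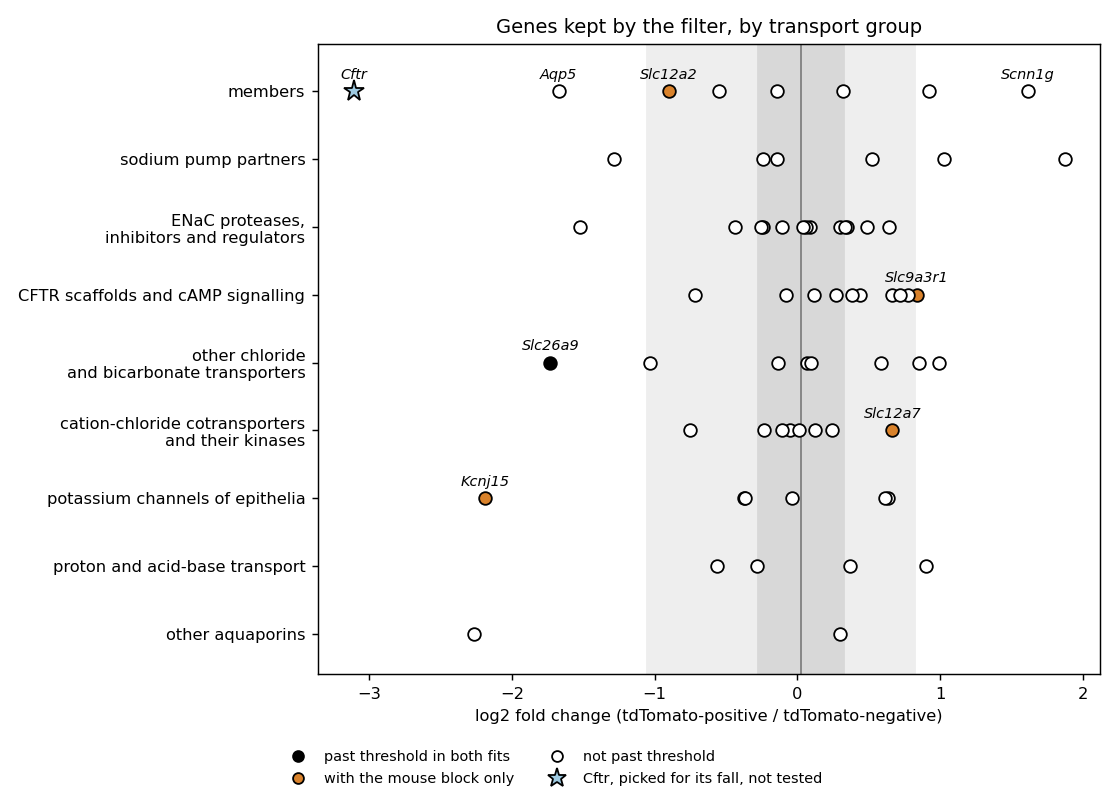
Fitted log2 fold change of every kept gene in the members and in 8 groups of other transport genes. Grey bands hold the middle 50% and 90% of all 13175 genes and the line their median of 0.03; Slc26a9 passed in both fits, and Slc12a2, Kcnj15, Slc9a3r1 and Slc12a7 with the mouse block only.

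Summed marker lists of several cell types were lower in the positive libraries, as Cftr was. All 12 alveolar type 2 markers were lower in every positive library than in any negative one, against 9.02% of all genes kept. Without the block 7 of the 12 fell, against 0.577% of all genes kept that were called lower, and with it 9 of the 12, against 1.79%. The marker lists too were chosen with earlier results of these data known, so these counts are a description. Their summed level was 1018, 1162 and 594 CPM in the positive and 7982, 6744 and 8118 CPM in the negative libraries of mice 1, 2 and 3. The log2 ratio of this sum was -2.97, -2.54 and -3.77, beside -2.57, -2.82 and -4.44 for Cftr, -1.76, -1.15 and -2.31 for Slc26a9, and -2.34, -1.54 and -3.25 for Kcnj15. Mouse 3 was lowest in each of these. For Slc12a2 the ratios were -0.68, -0.65 and -1.54. Over all 13175 genes kept, 6943 had a fitted log2 fold change above 0. Of the 12 multiciliated markers, 9 had a fitted log2 fold change above 0 and 3 below, although their sums were alike. With the block 3 of them rose (Foxj1, Tppp3 and Cfap126), against 1.36% of all genes kept, and none did without it. Of the 9 club markers 6 rose with the block and none without it.

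Ionocytes, rare airway cells rich in CFTR, were looked for by 5 markers. Their transcription factor gene Foxi1 had 0 reads over the positive and 1 read over the negative libraries, and Ascl3, another ionocyte factor, had 3 and 7. The summed level of the 5 was 5.40 to 13.1 CPM in the positive and 21.8 to 58.6 CPM in the negative libraries. Most of it came from the proton pump subunit genes Atp6v0d2 and Atp6v1c2, with 73 and 69 reads over the positive and 366 and 226 reads over the negative libraries. Atp6v1b1, the remaining marker, had 10 reads over the positive and 9 over the negative libraries. Foxi1 and Ascl3 had too few reads to compare, so no difference in ionocytes is read from this sum. Basal markers summed to 1.01 to 2.06 CPM in the positive and 10.1 to 18.2 CPM in the negative libraries. Tuft cell markers summed to 0.318 to 3.80 CPM in the positive and 6.24 to 13.1 CPM in the negative libraries, and neuroendocrine markers to 0 to 1.75 CPM and 4.68 to 10.9 CPM.

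Of the lists of cells other than epithelium, the erythroid, mesenchymal and leukocyte sums were lower in the positive library of every mouse too. Erythroid markers summed to 1.91 to 16.0 CPM in the positive and 17.7 to 43.3 CPM in the negative libraries, without overlap. Mesenchymal markers summed to 1.59 to 31.1 CPM in the positive and 17.2 to 62.1 CPM in the negative libraries, and leukocyte markers to 17.2 to 38.9 CPM and 19.1 to 102 CPM, with overlap for both. The log2 ratios in mice 1, 2 and 3 were -1.20, -1.78 and -4.30 for tuft, -1.43, -1.54 and -3.22 for erythroid, -0.998, -1.01 and -3.43 for mesenchymal and -1.30, -1.40 and -0.16 for leukocyte markers. Mesothelial markers, at 1.27 to 9.81 CPM in the positive and 2.92 to 27.4 CPM in the negative libraries, were not lower in mouse 2, and endothelial markers, at 9.53 to 27.7 and 7.60 to 10.9 CPM, were higher in every mouse. The part of any of these cell types in the Cftr values was not tested.

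**Figure D4:**
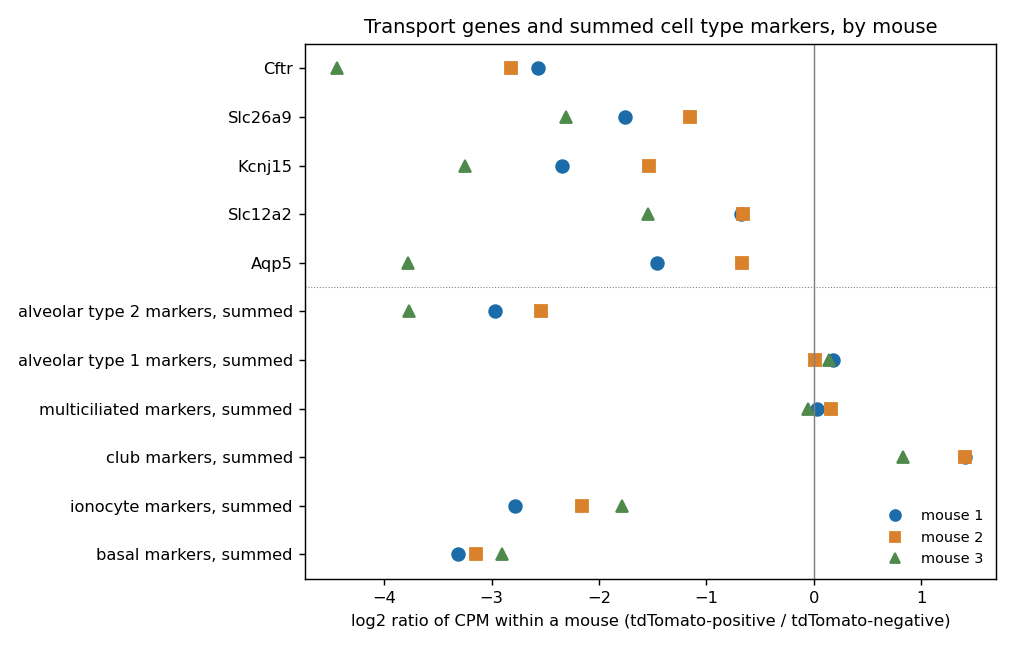
Log2 ratio of tdTomato-positive to tdTomato-negative CPM within each mouse, for 5 transport genes (above the dotted line) and for summed marker lists (below it). Alveolar type 2, ionocyte and basal sums lie below 0 in every mouse, club sums above 0, and alveolar type 1 and multiciliated sums between -0.05 and 0.18. The ionocyte sum comes mostly from Atp6v0d2 and Atp6v1c2.

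The genes whose profile over the 6 libraries was most like that of Cftr were found by the root mean square difference of log2 (CPM + 0.5), each centred on its own mean, among the 11252 other kept genes whose symbols are not of the provisional Gm or Rik form. The libraries share mice in pairs, and the profile contains the difference that picked Cftr, so the ranking is a description. The nearest 5 were Gem, Plxna4, Cxcl15, Enpep and Lyz2, at differences of 0.193, 0.28, 0.28, 0.319 and 0.361. Gem encodes a small GTP-binding protein, Plxna4 a semaphorin receptor, Cxcl15 a lung chemokine, Enpep aminopeptidase A and Lyz2 a lysozyme. Gem was at 4.22, 2.22 and 0.794 CPM in the positive and 25.03, 11.7 and 21.6 CPM in the negative libraries. Cxcl15 and Lyz2 are on the alveolar type 2 list. Among the members Aqp5 ranked nearest, at place 80, followed by Slc12a2 at 249 and Aqp4 at 566, while Scnn1g was at 11081.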

How the data were processed

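Per the labels' protocols, RNA of the sorted cells was amplified (Ovation RNA-Seq System V2) before TruSeq Nano libraries were built. The authors deposited unnormalized counts per gene symbol, 1 file per library. Their processing notes give the builds mm10 and GRCm38.p4 and the tools STAR 2.4.2a, HTSeq, cutadapt 1.7.1, DESeq2 and FastQC, with no roles; whether counting used strand is not given in the sources used here. The 5 summary rows of unassigned reads entered neither library sizes nor tests: 45.9% ± 3.05 of all reads in the positive and 45.7% ± 4.31 in the negative libraries lay in no gene, 1.94% ± 0.0478 and 1.44% ± 0.220 were ambiguous, and 10.3% ± 1.91 and 10.2% ± 0.548 aligned to several places (SD, n = 3 each).

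Groups came from the cell type label and mice from the individual label. CPM, log2 fold changes (positive over negative) and two-sided p-values were computed with edgeR 4.0.16 (R 4.3.3): filterByExpr with a count minimum of 10, TMM factors, robust quasi-likelihood test. The SE of an edgeR value was derived from this test, as the absolute log2 fold change divided by the square root of the F statistic. The pairing comes from the labels; deviations of the 2 libraries of mice 1, 2 and 3 from their group means correlated over genes at 0.268, 0.254 and 0.348. Alternatives were median-of-ratios (RLE) factors, library size only, no filter, a stricter filter with a count minimum of 30, DESeq2 1.42.0, limma-voom (limma 3.58.1), the replicate block, leaving out libraries and mice, and, added after the data were seen, leaving out mitochondrially encoded genes. Positions and exon lengths are from GENCODE M21 on GRCm38. The members and lists were chosen with earlier results of these data known. Named besides the members were listed transport genes past the threshold in either fit, otherwise the 2 most abundant of a list, and the 5 genes most like Cftr; 2 genes that this rule takes are not reported here.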

Additional observations from a re-analysis of the deposited data

How the results depend on the processing

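The replicate block, which takes the mouse as a term, passed 415 genes (179 higher and 236 lower in tdTomato-positive libraries), 2 members and 4 other transport genes, against 82, 6, 76, 1 and 1 without it. Given in the same order, the counts were 413, 167, 246, 3 and 4 with no filter, 245, 56, 189, 2 and 3 with DESeq2, 408, 178, 230, 2 and 4 with the block and no mitochondrially encoded genes, 633, 279, 354, 4 and 7 with the block without mouse 1, 380, 165, 215, 3 and 3 with the block without mouse 2, and 59, 13, 46, 1 and 1 with the block without mouse 3. Library size only gave 22 genes higher and 54 lower, and moved the median log2 change of all genes to 0.29. Limma-voom, and leaving out mitochondrially encoded genes, each passed 2 transport genes. Without 1 library or 1 mouse, the fit without the block passed 22 to 113 genes (2 to 15 higher, 17 to 98 lower), 0 to 2 members and 0 to 2 transport genes. The log2 change of Atp1b1 turned to 0.13 with library size only. Besides Slc12a2, the block changed the calls of Kcnj15, Slc9a3r1 and Slc12a7, and no other named transport gene's call. Aqp3 and Aqp5 had so few reads that small differences could not be measured at this depth. The cause of these changes was not tested. With 3 mice, 1 library can decide a call. Without the block, p-values rest on the spread of libraries within a fraction. With it, they rest on the spread left after the mouse term.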
